A study of Mus musculus with 2 samples.

Results

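The mouse mitochondrial genome encodes 13 proteins, and 10 of their transcripts, mt-Nd1, mt-Nd2, mt-Nd3, mt-Nd4, mt-Nd5, mt-Cytb, mt-Co1, mt-Co2, mt-Co3 and mt-Atp6, were followed here in islet cells. They were taken by gene symbol from the 31053 genes of the deposited tables. Droplet-based single cell RNA sequencing, which counts captured molecules by unique molecular identifiers (UMIs), had been done on 1 WT library and 1 Npc1KO library. The islets came from female mice aged 2 weeks, pooled from 3 mice per genotype. Npc1KO mice are Npc1-/- in all tissues, on the C57BL/6J background, and were bred from heterozygous parents together with the WT controls. NPC1 is the lysosomal protein that passes cholesterol out of the lysosome. Npc1 itself had 791 UMIs (8.37 CPM, the UMIs of a gene scaled to a total of 1e6 UMIs) in the WT barcodes kept and 392 (4.13 CPM) in the Npc1KO barcodes kept, and 3′ counting may include transcript outside the disrupted part.

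All of these proteins sit in the inner mitochondrial membrane. The ND proteins belong to complex I, which oxidises NADH, cytochrome b is the core of complex III, the CO proteins form the catalytic core of complex IV, which reduces oxygen, and ATP6 is part of the proton channel of ATP synthase. Mitochondrial DNA is transcribed as long precursors from each strand, the transfer RNAs are cut out, and the messengers between them are polyadenylated, so that the level of a single messenger also depends on how long it lasts. In β cells, ATP made by respiration closes potassium channels and lets insulin be released, which makes these transcripts of particular interest in islets.

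The counting of UMIs at 3′ ends makes the transcript ends relevant. In the GENCODE M21 annotation of the mm10 build, 3 members end with a lone T in place of a full stop codon, and polyadenylation is known to complete it. The ends of processed messengers were not examined. The annotated ends of these 3, and of mt-Co1 and mt-Nd1, which are annotated with full stop codons, are given 5′ to 3′. The final codon or its part is in capitals.
mt-Co3 (chrM:9361-9390, plus strand): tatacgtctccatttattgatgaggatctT
mt-Nd4 (chrM:11515-11544, plus strand): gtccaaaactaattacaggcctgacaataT
mt-Cytb (chrM:15259-15288, plus strand): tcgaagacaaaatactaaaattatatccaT
mt-Co1 (chrM:6843-6872, plus strand): gaggaaccaacctatgtaaaagtaaaaTAA
mt-Nd1 (chrM:3678-3707, plus strand): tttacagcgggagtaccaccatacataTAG

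All 10 members lie on the plus strand as single exons. The gene of mt-Atp6 starts inside that of mt-Atp8, a second ATP synthase subunit on the same messenger, and the 43 shared bases are shown with the first codon of mt-Atp6 and the last codon of mt-Atp8 in capitals, since reads there match both genes.
mt-Atp8 and mt-Atp6 (chrM:7927-7969, plus strand): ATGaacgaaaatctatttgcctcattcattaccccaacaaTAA
A further 7 bases are shared by mt-Nd4l and mt-Nd4, and 14 bases of mt-Nd5 are shared with mt-Nd6 on the opposite strand. Copies of mitochondrial DNA in the nuclear genome are a second source of ambiguity. In the last 300 bases of mt-Co1 and mt-Co2, 100% of the stretches of 60 bases also occurred in another annotated transcript, against 99.6% for mt-Co3, 98.8% for mt-Atp6 and mt-Nd3 and 29.05% for mt-Nd2. No such stretch (0%) was found for mt-Nd1, mt-Nd4, mt-Nd5 and mt-Cytb. For mt-Nd4l, which is not a member, the value was 98.7%. The tables listed 0 of the 9 copy genes, and how reads matching both places were assigned is not given in the sources used here. The counts of those 6 members and of mt-Nd4l are thus uncertain to that degree.

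The WT library held 8569 barcodes and 114324626 UMIs, and the Npc1KO library 7646 barcodes and 127122035 UMIs. The mt- genes took 7.15% and 6.72% of these UMIs, and the 10 members made up 99.7% and 99.6% of the mt- UMIs. Barcodes with over 1000 genes, under 50000 UMIs and under 10% mt- UMIs numbered 4655 in WT and 4287 in Npc1KO, and dropping the mt- limit added 317 and 202. The libraries had 12 barcode sequences in common. Each barcode was placed in the class of its leading hormone if that hormone took at least 10% of its UMIs. Other barcodes could enter an endothelial or a stellate class by marker genes. The stellate markers were Rgs5, Pdgfrb, Pdgfra, Acta2, Cspg4, Notch3, Col1a1, Col1a2, Col3a1 and Col6a1. Fibroblasts had no list of their own, so the stellate class may hold them beside stellate cells and pericytes. The WT and Npc1KO classes held 1834 and 1829 barcodes for insulin, 1049 and 858 for glucagon, 190 and 141 for somatostatin, 411 and 443 for the PP family (Ppy and Pyy), 451 and 464 for endothelial and 306 and 324 for stellate.

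The classes were described by the genes that had placed their barcodes. High values of a class's own markers thus follow from the rule and do not check its label. Insulin took 51.8% of the UMIs of the WT insulin class and at most 2.14% in any other class of either library. The endothelial markers summed to 16818 CPM in the WT endothelial class and 18121 CPM in Npc1KO, against at most 255 CPM in the other classes, and the stellate markers reached 15643 and 15781 CPM in the stellate classes, against at most 922 CPM elsewhere. The somatostatin class was less uniform, since a second hormone also reached 10% in 108 of its 190 WT barcodes and 101 of its 141 Npc1KO barcodes. In the PP class a second hormone did so in 108 of 411 WT and 144 of 443 Npc1KO barcodes. Because each genotype had 1 library, no test between genotypes was possible. Intervals are at 95% and cover counting error only, neither differences between mice nor between cells, and a lower level in a pool can mean fewer molecules per cell or more of all other RNA.

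Summed over the 10 members in barcodes with under 10% mt- UMIs, the level was highest in the stellate class and lowest in the endothelial class in both libraries. In WT it was 50974.5 CPM in the stellate, 45339 in the insulin, 41706 in the glucagon, 38998 in the PP, 37540.3 in the somatostatin and 35236 in the endothelial class. In Npc1KO it was 53261 CPM in the stellate, 47731 in the insulin, 43063 in the PP, 41515 in the glucagon, 38239 in the somatostatin and 34024 in the endothelial class. The order differed between the libraries only in the places of the glucagon and PP classes. The stellate level was 1.45 times the endothelial level in WT and 1.57 times in Npc1KO. The counting intervals of neighbouring classes did not overlap, but the interquartile ranges of their barcodes did at every step of the order. With no limit on mt- UMIs the order was the same, from 57587 CPM (stellate) to 37715 CPM (endothelial) in WT and from 56368 to 35804 CPM in Npc1KO. The classes at the ends changed under other limits. With mt- UMIs under 5% the insulin class was highest in Npc1KO, and with a hormone limit of 20% the somatostatin class was lowest in WT. The 5% limit caps the ranked level itself, and it left 121 of 306 WT and 118 of 324 Npc1KO stellate barcodes.

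**Figure D1:**
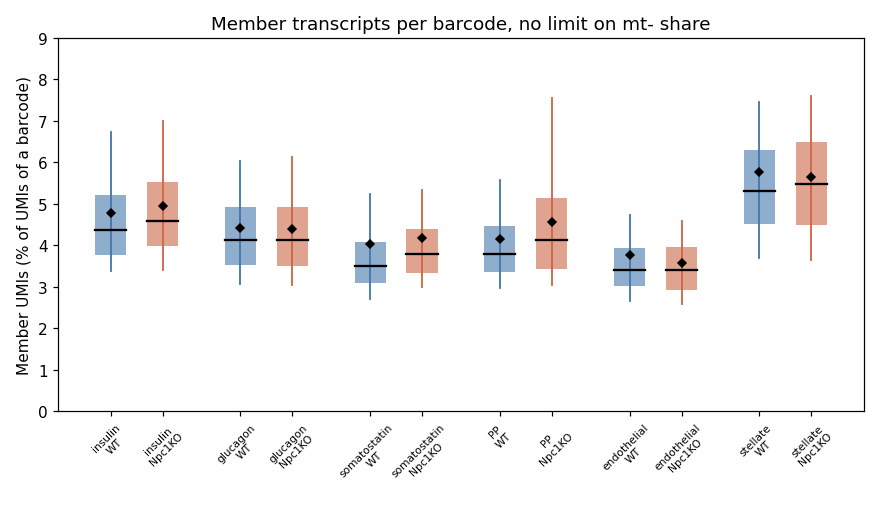
The plot gives the share of a barcode's UMIs that came from the 10 members (%, vertical axis) for each class and library, with no limit on the mt- share. Boxes span the quartiles, lines the 10th to 90th percentile, black bars are medians and diamonds are the share in the summed UMIs. The stellate boxes lie highest and the endothelial boxes low, and boxes of neighbouring classes overlap.

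Per barcode, the median share of UMIs from the members was 4.30% in the WT insulin class and 4.54% in the Npc1KO insulin class. It was 4.08% and 4.07% in the glucagon, 3.48% and 3.76% in the somatostatin, 3.76% and 4.03% in the PP, 3.38% and 3.39% in the endothelial and 5.26% and 5.45% in the stellate class. The quartiles of the WT insulin class were 3.74% and 5.04% and those of the Npc1KO insulin class 3.95% and 5.40%, so the genotypes overlapped widely.

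The place of the insulin class depended on the denominator, because hormone transcripts filled 53.3% of its UMIs in WT and 51.4% in Npc1KO. When hormone and mt- UMIs were left out of the total, the insulin class came first, with a summed member level of 107541 CPM in WT and 108872 CPM in Npc1KO. The endothelial class stayed lowest on that scale, at 37290.1 CPM and 35612 CPM. The ratio of highest to lowest class was then 2.88 in WT and 3.06 in Npc1KO. The members were also set against the nuclear-encoded subunits of complexes I to V, including complex II, which has no mt- gene. There were 3.75 member UMIs for each such UMI in the WT insulin class and 3.89 in the Npc1KO insulin class. This ratio was 2.39 and 2.22 in the glucagon, 2.16 and 2.14 in the somatostatin, 2.57 and 2.63 in the PP, 1.90 and 1.82 in the endothelial and 2.30 and 2.35 in the stellate class, so the insulin class was highest in both libraries.

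Among the members themselves, levels per kilobase of annotated transcript fell into the same broad order in all 12 sums of class and library. The complex IV and ATP synthase transcripts mt-Atp6, mt-Co3 and mt-Co2 came first, then mt-Co1, mt-Cytb and mt-Nd1, then mt-Nd2 and mt-Nd4, with mt-Nd3 and mt-Nd5 last. In the WT insulin class, CPM per kilobase was 11842 for mt-Atp6, 11551 for mt-Co3, 9896 for mt-Co2, 4883 for mt-Co1, 4779 for mt-Cytb, 2521 for mt-Nd1, 2219 for mt-Nd4, 2206 for mt-Nd2, 713 for mt-Nd3 and 237 for mt-Nd5. The complex I transcripts thus held the lower places, and mt-Atp6 stood 50.03 times above mt-Nd5 per kilobase. Because counting was at the 3′ end, a value per kilobase lowers long genes such as mt-Nd5, whose annotated transcript has 1824 bases against 348 for mt-Nd3.

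**Figure D2:**
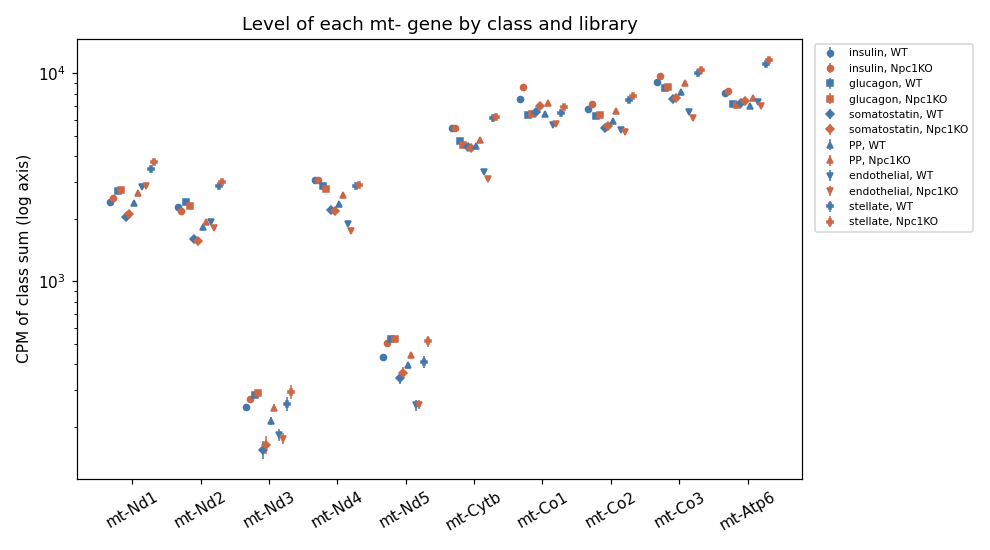
The plot gives the CPM of each member in the summed UMIs of each class (log axis), with a symbol for each class, blue for WT and orange for Npc1KO, and 95% Poisson intervals. Class differences exceed the differences between the libraries for most members, and mt-Nd3 and mt-Nd5 lie lowest.

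Complex I members differed in which class came first, and the values of single members are for barcodes with under 10% mt- UMIs unless stated otherwise. They are scaled to all UMIs, hormone transcripts included. As for the summed members, the order of the classes depends on this denominator, and single members were not ranked without hormone UMIs. The level of mt-Nd1, a membrane-arm core subunit, was 2413 CPM in the WT and 2519 CPM in the Npc1KO insulin class, 2723 and 2749 in the glucagon, 2052 and 2118 in the somatostatin, 2384 and 2654 in the PP, 2831 and 2878 in the endothelial and 3465 and 3742 in the stellate class. It was highest in the stellate class and lowest in the somatostatin class of both libraries. The level of mt-Nd2 ran from 1601 CPM in the somatostatin to 2880.5 CPM in the stellate class of WT and from 1563 to 3005 CPM in the same classes of Npc1KO. The level of mt-Nd4 was highest in the insulin class, at 3057 CPM in WT and 3083 CPM in Npc1KO, and lowest in the endothelial class, at 1894 and 1755 CPM. With no limit on mt- UMIs, mt-Nd4 was highest in the stellate class of WT, at 3314 CPM against 3229 CPM in the insulin class.

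The lowest members, mt-Nd5 and mt-Nd3, which also encode membrane subunits of complex I, were highest in the glucagon class of WT when scaled to all UMIs. For mt-Nd5, WT had 432 CPM in the insulin, 529 in the glucagon, 345 in the somatostatin, 395 in the PP, 254 in the endothelial and 411 in the stellate class, and Npc1KO had 506, 528, 362, 445, 256 and 515 CPM in the same order. The glucagon class stood highest in both libraries, 2.08 times (WT) and 2.06 times (Npc1KO) the endothelial class, although its Npc1KO interval of 517 to 539 CPM overlapped the stellate interval of 487 to 544 CPM. For mt-Nd3 the glucagon class had 284 CPM and the stellate class 257 CPM in WT, against 292 and 294 CPM in Npc1KO, with overlapping intervals in both libraries. The somatostatin class was lowest for mt-Nd3, at 155 and 163 CPM, although its Npc1KO interval overlapped that of the endothelial class, at 176 CPM. With no limit on mt- UMIs the endothelial class was lowest in Npc1KO, at 186 CPM against 188 CPM in the somatostatin class.

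The complex III and IV members were lowest in the endothelial class. For mt-Cytb, the endothelial class had 3374 CPM in WT and 3114 in Npc1KO, against 5467 and 5469 in the insulin, 4717 and 4527 in the glucagon, 4442 and 4365 in the somatostatin, 4456 and 4803 in the PP and 6113 and 6149 in the stellate class. The endothelial class was also lowest for mt-Co1, mt-Co2 and mt-Co3 in both libraries, but for mt-Co2 in WT its 5355 CPM (5289 to 5422) overlapped the 5469.7 CPM (5382 to 5558) of the somatostatin class. The level of mt-Co1 was highest in the insulin class, at 7543 CPM in WT and 8553 CPM in Npc1KO, whereas mt-Co2 and mt-Co3 were highest in the stellate class, at 7419 and 7745 CPM for mt-Co2 and 10056 and 10419 CPM for mt-Co3. The stellate class was also highest for mt-Atp6, with 11059.5 CPM (WT) and 11606 CPM (Npc1KO), and the other 5 classes lay between 6963 and 8253 CPM.

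Dividing each gene by the summed mt- UMIs removes the overall level and leaves the composition. The composition differed between the classes. Of the mt- UMIs of the endothelial class, mt-Nd1 took 8.0003% in WT (interval 7.87% to 8.13%) and 8.42% in Npc1KO, against 5.31% (5.28% to 5.33%) and 5.26% in the insulin class. The glucagon class had 6.50% and 6.58%, the somatostatin class 5.44% and 5.51%, the PP class 6.09% and 6.13% and the stellate class 6.77% and 6.99%. The share of mt-Nd1 thus differed 1.60 times between its extremes, and the libraries gave the classes the same order.

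The share of mt-Co1 set the stellate class apart. It was 12.6% in WT and 12.8% in Npc1KO stellate barcodes, against 15.004% and 15.2% in the glucagon, 16.004% and 16.7% in the endothelial, 16.3% and 16.7% in the PP, 16.6% and 17.8% in the insulin and 17.4% and 18.1% in the somatostatin class. Among these classes, the share of mt-Atp6 was highest in the stellate class, at 21.6% and 21.7%, and lowest in the glucagon class, at 16.9% and 17.0%. That of mt-Cytb was lowest in the endothelial class at 9.54% and 9.11%, and lay between 10.8% and 12.02% in the other classes. The share of mt-Co2 varied least between the classes, from 14.5% to 15.2%, a span of 1.05 times. Outside these classes, mt-Cytb took 9.46% and 8.66% in macrophage-marker barcodes. In WT it took 9.13% in B cell-marker and 8.80% in T cell-marker barcodes. Schwann-marker (13.5% and 11.2%), duct-marker (10.8% and 10.3%) and acinar-marker barcodes (10.7%, Npc1KO only) had higher values.

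**Figure D3:**
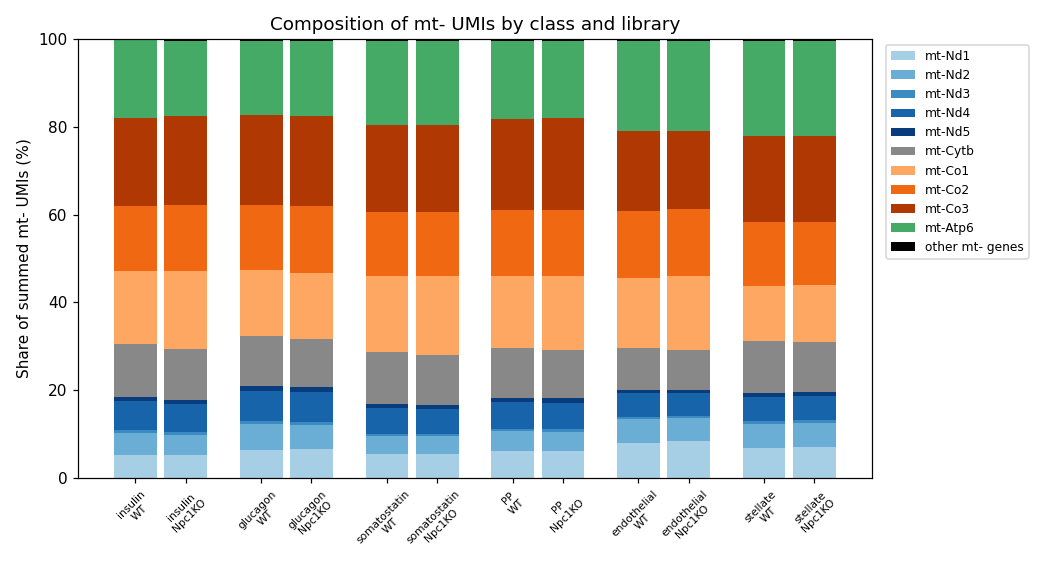
Stacked bars give the share of each gene in the summed mt- UMIs (%, vertical axis) for the 6 classes in both libraries, with complex I in blues, complex III in grey, complex IV in oranges and ATP synthase in green. The paired bars of a class look alike, and the stellate class has the smallest mt-Co1 band and the endothelial class the largest mt-Nd1 band.

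The distance between compositions, taken as the sum of absolute differences in share divided by 2, put a number on this. Between the libraries, the same class differed by 0.742% of mt- UMIs (PP) to 1.93% (insulin). Between different classes of the same library, the distance was 2.01% to 6.34% in WT, with a median of 5.46% over 15 pairs, and 2.04% to 7.55% in Npc1KO, with a median of 5.88%. The insulin class was nearest to the PP class in both libraries. Both the endothelial and the stellate class were far from every hormone class. The endothelial distances were 5.55% to 6.34% in WT and 6.15% to 7.55% in Npc1KO. The stellate distances were 5.46% to 6.07% and 5.87% to 7.45%. The hormone classes were not all close to each other, since the glucagon and somatostatin classes lay 5.15% (WT) and 5.58% (Npc1KO) apart. With under 10% mt- UMIs, all 6 distances between genotypes were below the distances between classes, by a small margin for the insulin class. With no limit this did not hold for the insulin class, whose distance between genotypes (1.919%) was above the WT distance between the PP and insulin classes (1.917%).

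**Figure D4:**
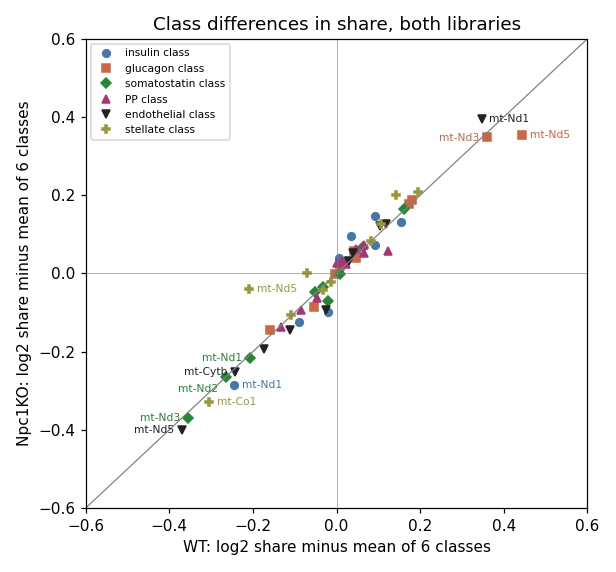
Each point is 1 member in 1 class, placed by the log2 of its share minus the mean over the 6 classes in WT (horizontal axis) and in Npc1KO (vertical axis), with the line of equality. Points lie along the line, and members with a deviation of at least 0.2 in WT are named.

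Deviations of the members' shares from their means over the classes were alike in the libraries, with the same sign for 58 of 60 combinations of member and class (Pearson r 0.97, Spearman rho 0.97, described over points that share their libraries and sum to a whole within a class). In WT, 11 deviations exceeded 0.2 on the log2 scale, and all 11 had the same sign in Npc1KO. They were those of mt-Nd1 in the insulin (-0.25), somatostatin (-0.21) and endothelial (0.35) classes, mt-Nd2 in the somatostatin class (-0.26), mt-Nd3 in the glucagon (0.36) and somatostatin (-0.36) classes, mt-Nd5 in the glucagon (0.44), endothelial (-0.37) and stellate (-0.21) classes, mt-Cytb in the endothelial class (-0.24) and mt-Co1 in the stellate class (-0.30). Of these, 9 were of complex I transcripts, to which mt-Nd1 to mt-Nd5 of the 10 members belong. Counting error weighs most on mt-Nd3 and mt-Nd5, the members with the fewest UMIs. Only mt-Nd5 in the stellate class was under 0.2 in Npc1KO, at -0.04.

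The study asked how loss of Npc1 affects islet cells, including their respiration. For the summed members, the difference between the genotypes was small in every class. Ratios are given as log2 of Npc1KO over WT relative to the median gene of the class, because the median gene itself was shifted by 0.12 in the insulin class. The summed members were at -0.045 in the insulin, -0.036 in the glucagon, 0.015 in the somatostatin, 0.080 in the PP, -0.060 in the endothelial and 0.078 in the stellate class. In 3 classes the sign turned under 1 of the alternatives each. With totals that exclude hormone and mt- genes, the insulin class was at 0.018. With a limit of 5% mt- UMIs the PP class was at -0.024, and with no limit the stellate class was at -0.027. The 5% limit caps the members' own level, and it kept 367 of 411 WT but 339 of 443 Npc1KO barcodes of the PP class.

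Counting as past the fold a CPM at least 25% higher or 20% lower than in WT after scaling to the median gene, 0 of 10 members were past it in the insulin class, where 13.9% of all genes tested were. The count was also 0 of 10 in the glucagon class (8.71% of genes tested), the somatostatin class (31.3%), the PP class (17.7%) and the endothelial class (19.2%). In the stellate class (32.8%) it was 1 of 10, namely mt-Nd5, with 411 CPM (985 UMIs) in WT and 515 CPM (1248 UMIs) in Npc1KO and a log2 ratio of 0.34 (0.22 to 0.46). With no limit on mt- UMIs this ratio was 0.18 (0.06 to 0.29), and 0 of 10 members were past the fold in each class, where 13.3% (insulin), 8.41% (glucagon), 30.7% (somatostatin), 17.4% (PP), 19.2% (endothelial) and 32.5% (stellate) of genes tested were. Of the 60 ratios of member and class, 46 lay within 0.1 of the median gene, and the lowest was -0.19 for mt-Nd2 in the insulin class. Low genes reach the fold more easily through counting error, so the shares of all genes are set beside the members' counts only as a reference.

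**Figure D5:**
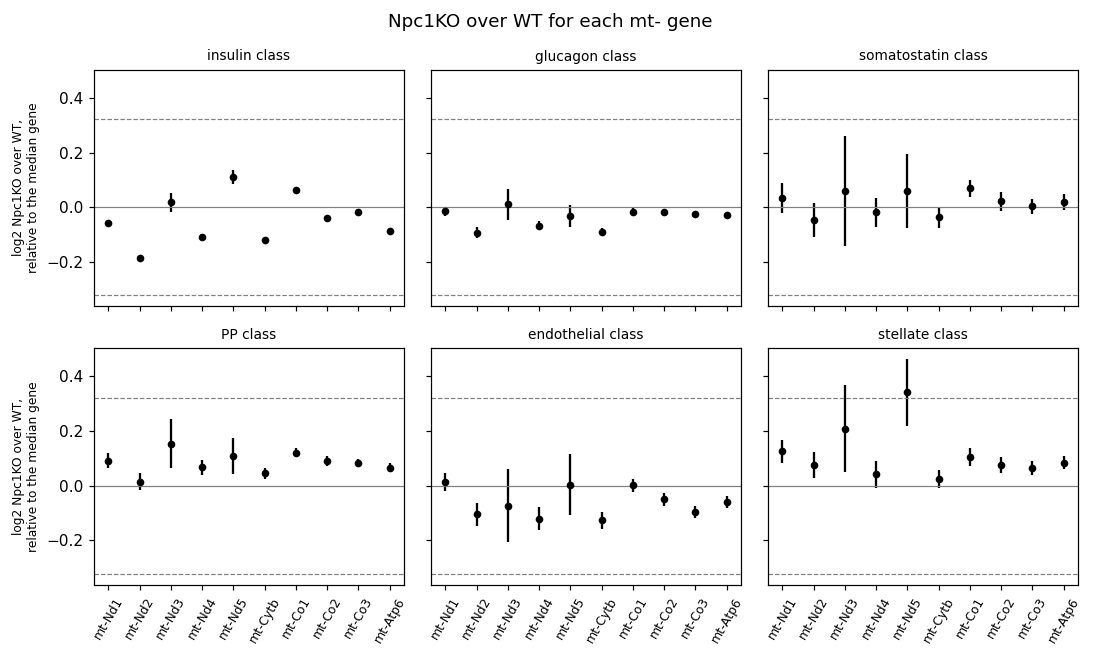
Points give log2 Npc1KO over WT relative to the median gene (vertical axis) for each member in the 6 classes, with 95% counting intervals, some smaller than the points, and dashed lines where Npc1KO is 25% higher or 20% lower. The members lie near 0 in all classes, and mt-Nd5 in the stellate class is the only point past a dashed line.

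Within the mt- UMIs, the libraries differed in small steps, which for 5 of the 10 members went the same way in each class. In Npc1KO the share of mt-Cytb was lower in 6 of 6 classes, and the counting interval of the ratio excluded 0 in all 6. The share was 12.02% in WT and 11.4% in Npc1KO in the insulin class, 11.3% and 10.8% in the glucagon, 11.8% and 11.4% in the somatostatin, 11.4% and 11.1% in the PP, 9.54% and 9.11% in the endothelial and 11.9% and 11.5% in the stellate class. The shares of mt-Nd2 and mt-Nd4 were also lower in 6 of 6 classes, with intervals that excluded 0 in 4 and in 3. In the insulin class, mt-Nd2 took 5.03% in WT and 4.56% in Npc1KO, and mt-Nd4 6.72% and 6.43%.

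The share of mt-Co1 was higher in Npc1KO in 6 of 6 classes, in 5 with an interval that excluded 0. The step was largest in the insulin class, from 16.6% to 17.8%, and smallest in the glucagon class, from 15.004% to 15.2%, on the log2 scale. The share of mt-Nd5 was higher in 6 of 6 classes, in 2 of them (insulin and stellate) with an interval that excluded 0. The remaining members, mt-Nd1, mt-Nd3, mt-Co2, mt-Co3 and mt-Atp6, had both directions. The 6 classes of a genotype came from the same library, so they do not repeat the comparison of genotypes, and genotype and library cannot be told apart.

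The other mt- protein genes had few UMIs, and mt-Atp8 and mt-Nd4l differed more between the libraries than the members did in most classes. For mt-Atp8, WT and Npc1KO had 35.9 and 50.3 CPM in the insulin, 46.8 and 62.1 in the glucagon, 39.2 and 55.5 in the somatostatin, 41.5 and 57.8 in the PP, 36.8 and 47.4 in the endothelial and 57.1 and 76.4 in the stellate class. Relative to the median gene, Npc1KO over WT lay at 0.36 to 0.49 on the log2 scale and was past the fold in 6 of 6 classes. The lower limits of the intervals ran from 0.08 (endothelial) to 0.28 (insulin). Counts were as low as 107 (WT) and 135 (Npc1KO) UMIs in the somatostatin class, and each interval reached below the fold. Of all genes tested, 7.52% (insulin), 4.15% (glucagon), 16% (somatostatin), 8.86% (PP), 8.57% (endothelial) and 15.8% (stellate) were past it in that direction. For mt-Nd4l, which encodes a small membrane subunit of complex I, the insulin class had 93.1 CPM in WT and 132 CPM in Npc1KO, a log2 ratio of 0.38 (0.33 to 0.43), and the PP class (0.44) and the stellate class (0.62) also passed the fold. The glucagon (0.29), somatostatin (0.19) and endothelial (0.10) classes did not. The counts of mt-Nd4l carry the uncertainty of nuclear copies given above. These are the genes that overlap mt-Atp6 and mt-Nd4 on shared messengers, and mt-Atp6 had ratios of only -0.09 to 0.08. Both mt-Atp8 and mt-Nd4l lie on the 5′ side of those messengers. With counting at 3′ ends, their UMIs need not follow the level of the messenger. The level of mt-Nd6, the only protein gene of the minus strand, was 6.40 and 8.29 CPM in the insulin class and 24.1 and 25.1 CPM in the endothelial class. Its share of mt- UMIs ranged 5.21 times over the 12 sums, from the WT insulin to the Npc1KO endothelial class. This was more than for any member, on 40 to 450 UMIs per class and library.

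Barcodes too poor in genes to enter a class had the same directions when summed together. Those with at most 1000 genes numbered 3429 in WT and 2787 in Npc1KO, and the members took 47.1% and 56.4% of their UMIs. In their mt- UMIs mt-Co1 took 14.96% and 15.6%, mt-Nd2 5.43% and 5.003%, mt-Nd4 6.25% and 5.85%, mt-Cytb 10.99% and 10.87%, mt-Atp8 0.0673% and 0.0891% and mt-Nd4l 0.175% and 0.219%. Barcodes with at least 50% mt- UMIs held 2460791 of the 2908246 member UMIs in WT and 2431424 of 2632619 in Npc1KO. In lower ranges some directions turned. The share of mt-Nd4 was 5.34% in WT and 6.07% in Npc1KO under 5% mt- UMIs, and 5.65% and 5.90% at 5% to 10%. That of mt-Cytb was 11.11% and 11.15% at 20% to 50%. RNA free in the droplets adds to every barcode, and its part in the shares was not tested.

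Composition also moved with the mt- share of a barcode, within a class as well. In the WT insulin class mt-Co1 took 16.9% of mt- UMIs in barcodes with under 5% mt- UMIs, 15.9% in those with 5% to 10%, 15.4% at 10% to 20% and 15.03% at 20% to 50%. In the Npc1KO insulin class the values were 18.3%, 17.3%, 17.0% and 15.9%, higher than WT in each range. The share of mt-Co3 went the other way, with 19.7%, 20.3%, 20.7% and 20.9% in WT and 20.04%, 20.6%, 20.8% and 21.8% in Npc1KO. The uppermost range rests on 36 WT and 24 Npc1KO barcodes.

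In the insulin class the step in mt-Co1 was present at every depth. In insulin-class barcodes with under 10000 UMIs its share was 17.5% in WT and 20.02% in Npc1KO. It was 16.6% and 18.2% at 10000 to 20000 UMIs, 16.6% and 17.9% at 20000 to 35000 and 16.6% and 17.7% at 35000 to 50000. The share of mt-Nd4l was highest in the shallowest range, at 0.397% in WT and 0.584% in Npc1KO, against 0.206% and 0.261% in the deepest, and Npc1KO was above WT in each of the 4 ranges.

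Insulin-class barcodes in which Ppy and Pyy took at least 1% of UMIs were 491 of 1834 in WT and 822 of 1829 in Npc1KO. In these the members took 4.31% (WT) and 4.63% (Npc1KO) of UMIs, against 4.61% and 4.88% in the remaining insulin-class barcodes. The share of mt-Co1 was 17.1% and 18.4% with these hormones and 16.4% and 17.5% without. In the insulin class the direction between the libraries was the same on both sides of the split. In the glucagon class it was not. There mt-Co1 took 15.1% (WT) and 15.4% (Npc1KO) with these hormones, and 14.84% and 14.81% without. The members took 4.04% and 4.01% of UMIs with them, and 4.36% and 4.46% without.

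Stress genes differed between the libraries. Fos, Jun, Hspa1a and Dnajb1, which are induced when tissue is dissociated, summed to 551 CPM in WT and 162 CPM in Npc1KO in the insulin class, and were higher in WT in all 6 classes. Without barcodes in which these genes took at least 0.5% of UMIs, the summed members were at -0.047 in the insulin class (log2 ratio), and mt-Cytb and mt-Nd4 still had lower shares, and mt-Co1 higher shares, in 6 of 6 classes, while mt-Nd2 had a lower share in 5. Haemoglobin genes, which mark red blood cells, summed to 93.0 CPM in WT and 171 CPM in Npc1KO in the insulin class, 18.7 and 219 CPM in the glucagon, 14.2 and 434 CPM in the PP, 3005 and 4529.9 CPM in the endothelial and 1338 and 1945 CPM in the stellate class. The somatostatin class had the other direction, with 49.1 and 11.1 CPM. The part of these genes in the results was not tested.

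The nuclear genome encodes the remaining subunits of complexes I to V. Of 80 such genes listed, 78 were tested in the insulin class, where 0 were past the fold higher and 7 lower in Npc1KO, with a median log2 ratio of -0.11. Of all genes tested there, 7.52% passed the fold higher and 6.36% lower. Before scaling to the median gene, the 80 genes summed to 12095 CPM in WT and 12272 CPM in Npc1KO in that class. In the other classes 0 or 1 of 77 passed the fold in either direction, with medians of 0.08 (glucagon), 0.03 (somatostatin), 0.06 (PP), 0.02 (endothelial) and 0.05 (stellate). The largest difference was in Cox6a2, a muscle-type subunit of complex IV, with 22.4 CPM in WT and 4.57 CPM in Npc1KO and a log2 ratio of -2.41 (-2.62 to -2.22). Atp5b, the catalytic β subunit of ATP synthase, had 360.1 CPM in WT and 285 CPM in Npc1KO (log2 ratio -0.46). Uqcrc1 and Uqcrc2, the core proteins of complex III, were at -0.44 and -0.37. In that class the members of complexes III, IV and V lay between -0.12 (mt-Cytb) and 0.06 (mt-Co1). The ATP synthase gene mt-Atp8, not a member, was at 0.37 (0.28 to 0.45). It shares its messenger with mt-Atp6, which was at -0.09, so its value need not reflect the level of that messenger.

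Genes that act on mitochondrial DNA and RNA were read in the insulin class beside the members. Of 10 genes listed for transcription and copying of mitochondrial DNA, 5 were tested and 0 passed the fold in either direction, with a median log2 ratio of -0.12. Of all genes tested in that class, 13.9% passed the fold (7.52% higher and 6.36% lower), so 0 of 5 says little. Of 18 genes for the processing and stability of mitochondrial RNA, 12 were tested and 0 passed it, with a median of 0.02. Lrpprc and Slirp, which bind and stabilise mitochondrial messengers, had log2 ratios of 0.16 (0.09 to 0.24) and 0.21 (0.10 to 0.33), and Tfam, which packs and transcribes mitochondrial DNA, -0.28 (-0.39 to -0.17). In the other classes Lrpprc ran from -0.27 (stellate) to 0.60 (somatostatin) and Slirp from -0.04 (somatostatin) to 0.40 (PP). Tfam ran there from -0.22 (endothelial) to 0.16 (stellate). Of 78 genes for the mitochondrial ribosome, 76 were tested, of which 0 passed the fold higher and 2 lower, with a median of -0.15. Before scaling to the median gene, these 78 genes summed to 3028 CPM in WT and 3000 CPM in Npc1KO.

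Across the 12 sums of class and library, log2 CPM of the members correlated with each other with a median Pearson r of 0.71 over 45 pairs. The highest was 0.97 for mt-Co3 with mt-Cytb, and the lowest -0.22 for mt-Nd1 with mt-Co1. Among 2940 genes with at least 20 CPM in every sum, those most like the summed members were Neu1, a lysosomal sialidase (r 0.84), Srm, spermidine synthase (0.84), Cks1b, a cell cycle kinase partner (0.83), Nt5dc2 (0.82) and Cd63, a tetraspanin of late endosomes (0.77). Least like them were Dctn3, a dynactin subunit (-0.98), the class I histocompatibility genes H2-K1 (-0.95) and H2-D1 (-0.93), Hipk2, a kinase (-0.92), and Ndufa4, a nuclear-encoded subunit of complex IV (-0.91). Ndufa4 had 98.4 CPM in the WT stellate class and 484 CPM in the WT endothelial class, the reverse of the members. These coefficients describe 12 points that share 2 libraries and the totals they were divided by.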

How the data were processed

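Single cell suspensions of islets were sequenced with 10x Genomics 3′ reagents (v3 in the labels, v2 in the paper). For each barcode, the authors deposited unnormalized UMI counts of every gene, after a filter to cell barcodes. The submitters' processing notes name Cell Ranger 3.1.0, Seurat 4.0.3 and mm10. The counts were used as deposited. The features tables gave all mt- genes, and coordinates and sequences came from GENCODE M21.

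For the present re-analysis, counts were summed by class and library with pandas 2.3.3, numpy 2.4.6 and scipy 1.17.1 under Python 3.11.15, and figures were drawn with matplotlib 3.10.9. An endothelial or stellate barcode needed at least 3 detected markers and more than any other list. No doublet caller was run, and barcodes with a second hormone were left out as an alternative. A gene was tested in a class where it reached 5 CPM in at least 1 library, ratios had 0.5 counts added, and intervals were Poisson, Clopper-Pearson or conditional binomial at 95%. The TMM factor came from edgeR 4.0.16 in R 4.3.3. The intervals were tested on simulated Poisson counts without variation between cells or mice, which checks the calculation only. Named were all mt- genes, listed genes past the fold in the insulin class with at least 20 CPM (at most 5 in each direction), and the 5 genes most and 5 least correlated with the members. A gene that this rule names is not reported here. Lrpprc, Slirp and Tfam were named after their values were seen. Members and lists were chosen with earlier results of these data known. Alternatives concerned the mt-, gene, hormone and UMI limits, the scale, the floor and the fold.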

Additional observations from a re-analysis of the deposited data

Results flagged for a closer look

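The summed members lay on different sides of the median gene in different classes. The log2 ratio of Npc1KO over WT was -0.0455 in the insulin, -0.0360 in the glucagon and -0.0602 in the endothelial class, against 0.0149 in the somatostatin, 0.0802 in the PP and 0.0777 in the stellate class. The difference between classes was not tested, since each genotype has 1 library, and the signs in the insulin, PP and stellate classes turned under 1 other setting each.

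Barcodes with at most 1000 genes entered no class. The members took 56.4% of their UMIs in Npc1KO and 47.1% in WT, with a median of 316 genes per barcode in Npc1KO and 421 in WT.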

How the results depend on the processing

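No paired analysis was possible because each genotype has 1 library and no replicates. The values below are log2 ratios of the summed members (Npc1KO over WT) unless stated otherwise, and the cause of the shifts was not tested. With no mt- limit they were -0.0687 (insulin), 0.0379 (somatostatin), -0.0863 (endothelial) and -0.0266 (stellate, turned), no member passed the fold (0), the insulin composition distance was 1.919%, above the smallest distance between WT classes (1.917%), and the WT class range 1.53 times. With mt- UMIs under 5% they were -0.0849 (insulin), 0.0860 (somatostatin), -0.0236 (PP, turned) and 0.0284 (stellate), 0 members passed the fold, the distance was 1.90% and the ranges 1.19 (WT, stellate over endothelial) and 1.23 times (Npc1KO, insulin over endothelial). This limit caps the members' own level, so these shifts and narrower ranges are not independent of it. The TMM factor gave -0.0643 (insulin), 0.0886 (PP) and -0.0440 (endothelial). Totals without hormone and mt- genes gave 0.0177 (insulin, turned), -0.0141 (glucagon), 0.0570 (stellate), 0 members past the fold and ranges of 2.88 and 3.06 times (insulin over endothelial in both). Means over barcodes gave -0.0195 (insulin), -0.0252 (glucagon), 0.0567 (somatostatin), -0.0398 (endothelial), 0.0612 (stellate) and 0 members. With no floor they were -0.0575 (insulin), -0.0435 (glucagon), 0.000317 (somatostatin) and -0.0431 (endothelial), and with a floor of 20 CPM -0.0062 (insulin) and 0.0622 (stellate). Without barcodes with a second hormone they were -0.0299 (glucagon), 0.0402 (somatostatin) and 0.107 (PP). A hormone limit of 20% gave 0.0908 (somatostatin), 0.0607 (PP), -0.0465 (endothelial), 0.0444 (stellate) and ranges of 1.47 (WT, stellate over somatostatin) and 1.52 times (Npc1KO, stellate over endothelial). A fold of 1.5 in either direction left 0 members. Chosen after seeing the data, no upper UMI limit gave -0.0587 (insulin), 0.00105 (somatostatin), 0.0545 (PP) and -0.1097 (endothelial). The endothelial value moved although the class went only from 451 to 454 barcodes in WT and from 464 to 465 in Npc1KO. Leaving out barcodes rich in stress genes, also chosen after seeing the data, gave 0.0598 (stellate).

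Over 8 settings of the barcode limits, the reported one included, shares of mt-Cytb and mt-Nd4 were lower and those of mt-Atp8, mt-Nd4l and mt-Nd6 higher in Npc1KO in all 6 classes in 8, mt-Co1 was higher in all classes in 7, and mt-Nd2 lower and mt-Nd5 higher in all classes in 5. The results rest on 1 pool of 3 mice per genotype.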

Other observations

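Barcodes of other cell types, placed by marker genes, also carried the members. Barcodes with B cell markers (142) and T cell markers (66) were summed in WT only, since Npc1KO had fewer than 10 of each, and the members took 6.03% and 4.81% of their UMIs. Macrophage-marker barcodes (56 in WT, 31 in Npc1KO) were at 4.82% and 5.26%, and Schwann-marker barcodes (32 and 36) at 5.55% and 5.51%. In the T cell barcodes mt-Atp6 took 23.5% of mt- UMIs and mt-Nd3 0.322%, and mt-Cytb took 13.5% in the WT and 11.2% in the Npc1KO Schwann barcodes. These are values of single libraries, with few barcodes each.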
